A study of Mus musculus with 6 samples.

Results

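The epidermal growth factor (EGF) receptor family was followed in B/CMBA.Ov cells through 10 genes of the 21136 named genes on a mouse whole-transcript array. They were 3 receptor genes (Egfr, Erbb2 and Erbb3), 6 ligand genes (Areg, Ereg, Hbegf, Tgfa, Btc and Nrg1) and Errfi1, which encodes an inhibitor of the receptors. The genes were chosen by symbol, with earlier results of these data known. Each symbol led to exactly 1 transcript cluster, the array's summary of all probes of a gene. No filter on dim genes was applied, so all 10 were tested.

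B/CMBA.Ov is a cell line which, per the labels, comes from the ovary of a BALB/c mouse. On 3 arrays the cells had received a synthetic mimic of mouse miR-15a-3p, and on the other 3 a negative control mimic. Both groups were the same line, were transfected with a lipid reagent at a final mimic concentration of 20 nM, and gave total RNA 48 h later. The comparison addresses what the added microRNA does to transcript levels, at a supplied dose and not at the level the cells make themselves.

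Ligands of this family are made as membrane-anchored precursors and are cut loose by proteases of the ADAM family. The free ligand joins receptors into pairs that phosphorylate each other and switch on the Ras-ERK and PI3K-AKT cascades. Amphiregulin (Areg) and TGF-alpha (Tgfa) bind EGFR, epiregulin (Ereg), betacellulin (Btc) and HB-EGF (Hbegf) bind EGFR and ERBB4, and neuregulin 1 (Nrg1) binds ERBB3 and ERBB4. ERBB2 has no known ligand and serves as a partner of the others. In the ovary, amphiregulin, epiregulin and betacellulin carry the signal of luteinizing hormone from granulosa cells to the cumulus cells around the oocyte.

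The small RNA supplied to the cells is shown because it is the only intended difference between the groups. It is the mature strand as listed by RefSeq, at chr14:61632038-61632059 of build GRCm38.p6 on the minus strand. Capitals mark the seed, bases 2 to 8, with which a microRNA pairs to its targets. The make-up of the synthetic mimics, not given in the sources used here, may differ from it.
mmu-miR-15a-3p: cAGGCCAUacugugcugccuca

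The array values were log2 values, summarised and normalized by the authors, with array medians between 6.94 and 7.01. Across transcript clusters r lay between 0.993 and 0.996 for pairs of arrays within a group and between 0.989 and 0.993 for pairs across groups. Nothing in the labels tells whether replicates were separate cultures, so p-values rest on a spread between arrays that may be technical. Markers of mesothelial and ovarian surface cells were bright in this line, with 9 of 9 at or above the mean log2 value of the median gene. For fibroblasts and stroma this held for 5 of 7 markers, for epithelial cells for 2 of 6, for granulosa cells for 3 of 10, for theca and steroid-producing cells for 0 of 5, for oocytes for 0 of 4, for endothelial cells for 0 of 4 and for leukocytes for 1 of 5. Of the granulosa markers, Inhba, Inhbb and Fst lay above that value, and Foxl2, Fshr and Cyp19a1 were among those below it.

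The ligand genes moved in opposite directions while the receptor genes did not pass the test. With the miR-15a-3p mimic Areg and Hbegf rose, to 1.53 and 1.47 times the control. Btc, Ereg and Nrg1 fell, to 0.467, 0.657 and 0.816 times the control. Tgfa, the 3 receptor genes and Errfi1 did not pass. In all, 5 of the 10 genes passed a limma adjusted p of 0.05 and all 5 were ligand genes, while of all genes 11.7% were called, 6.09% as risen and 5.64% as fallen. Among genes with a mean at or above that of the median gene, which holds for 9 of the 10, the share called was 19.2%. Because the 10 were chosen with earlier results known, the shares are given as description only. The division of all called genes into rises and falls depended on the scaling, with 51.9% risen as deposited and 40.4% after each array was centred on its median. The directions of the 5 called genes were the same under either scaling.

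**Figure D1:**
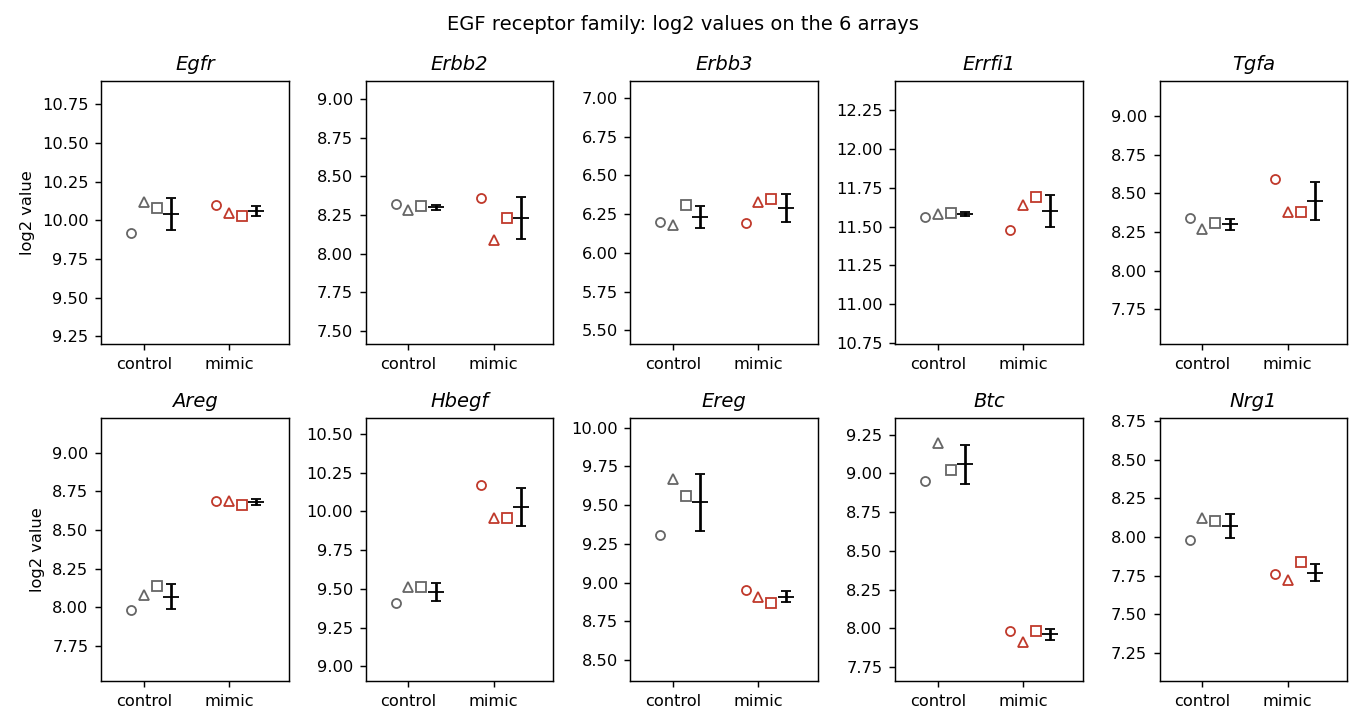
Log2 value of each gene on the 6 arrays, with control arrays in grey and miR-15a-3p mimic arrays in red, replicates 1, 2 and 3 as circle, triangle and square, and the group mean ± SD (n = 3) as a black bar; every vertical axis spans the same log2 range. The groups of Areg, Hbegf, Ereg, Btc and Nrg1 lie apart, those of the receptor genes and Errfi1 overlap, and those of Tgfa are separated by a narrow gap.

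Among the receptors, Egfr encodes the founding member of the family. Its log2 value was 9.92, 10.12 and 10.08 on the control arrays and 10.10, 10.05 and 10.03 on the mimic arrays (transcript cluster 10374366). The groups overlapped, and control replicate 1 was the lowest array. The log2 fold change was 0.02 ± 0.07 (SE; limma adjusted p = 0.93), with a 95% interval from -0.14 to 0.17, which covers ratios from 0.906 to 1.13.

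Erbb2 (10380896) gave log2 values of 8.32, 8.28 and 8.31 with the control and 8.36, 8.09 and 8.23 with the mimic. The mimic arrays were more spread (SD 0.136) than the control arrays (SD 0.0171, n = 3), and replicate 1 with the mimic lay above all controls. The 95% interval of the log2 fold change ran from -0.25 to 0.10 (adjusted p = 0.63). Erbb3 (10373467), whose protein has a weakly active kinase and signals through its partners, gave 6.20, 6.18 and 6.31 with the control and 6.19, 6.33 and 6.35 with the mimic. It was the 1 gene of the 10 whose mean lay below that of the median gene (7.27), and with no detection call in the deposited values a level near background cannot be set apart. Its interval ran from -0.10 to 0.22 (adjusted p = 0.69). These intervals bound the change that the 6 arrays allow, and they do not show that the receptor transcripts were equal.

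Areg, the gene of amphiregulin, rose. Its log2 value (10523182) was 7.98, 8.08 and 8.14 on the control arrays and 8.69, 8.69 and 8.66 on the mimic arrays. The 3 mimic arrays lay close together and all above the highest control. The log2 fold change, mimic over control, was 0.62 ± 0.07 (SE; limma adjusted p = 0.00041), with a 95% interval from 0.47 to 0.76.

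Hbegf, the gene of heparin-binding EGF-like growth factor, rose by a like amount. It had 9.41, 9.51 and 9.51 with the control and 10.17, 9.96 and 9.96 with the mimic (10458340). The groups were apart, and mimic replicate 1 was the highest array. The log2 fold change was 0.55 ± 0.08 (SE; limma adjusted p = 0.0017), and it was 0.48 without mimic replicate 1.

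Btc, the gene of betacellulin, showed the largest change of the 10 and the only one of at least 2-fold. Its log2 value (10531274) was 8.95, 9.20 and 9.02 with the control and 7.98, 7.91 and 7.98 with the mimic. The lowest control stood almost a full log2 unit above the highest mimic array. The log2 fold change was -1.10 ± 0.08 (SE; limma adjusted p = 6.2e-05), with a 95% interval from -1.27 to -0.93. It ranked 18 of 21136 genes from the lowest log2 fold change, and 0.237% of all genes both passed the test and changed at least 2-fold.

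Ereg, the gene of epiregulin, fell. Its log2 value (10523175) was 9.31, 9.67 and 9.56 with the control and 8.95, 8.91 and 8.87 with the mimic. The control arrays were more spread (SD 0.184) than the mimic arrays (SD 0.0383, n = 3), and control replicate 1 was nearest to the mimic group. The log2 fold change was -0.61 ± 0.09 (SE; limma adjusted p = 0.0025), and it was -0.71 without control replicate 1.

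Nrg1, the gene of neuregulin 1, fell by less. It had 7.98, 8.12 and 8.10 with the control and 7.76, 7.72 and 7.84 with the mimic (10578045). The groups did not overlap, yet the log2 fold change, -0.29 ± 0.07 (SE; adjusted p = 0.021), was close to the threshold. The call was lost without replicate 1 or 2 of the mimic (adjusted p = 0.058 and 0.072) or replicate 2 or 3 of the control (0.065 and 0.10). The calls of Areg, Hbegf, Btc and Ereg were kept in all 15 alternative fits, with adjusted p up to 0.022, that of Ereg when all transcript clusters were tested.

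Tgfa, the gene of TGF-alpha, had log2 values of 8.34, 8.27 and 8.31 with the control and 8.59, 8.38 and 8.38 with the mimic (10539692). The groups did not overlap, but mimic replicate 1 stood above the other mimic arrays. The log2 fold change of 0.14 had a 95% interval from -0.02 to 0.31 (limma adjusted p = 0.29), and it was 0.07 without mimic replicate 1. With Tgfa, 6 of the 10 genes had groups that did not overlap, and 29.6% of all genes did.

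Errfi1 encodes MIG6, a protein that ERK signalling induces and that binds and blocks the kinase domains of EGFR and its relatives. Its log2 value (10510574) was 11.56, 11.58 and 11.59 with the control and 11.48, 11.64 and 11.69 with the mimic. The mimic arrays lay on both sides of the controls. The 95% interval of the log2 fold change ran from -0.13 to 0.18 (adjusted p = 0.88).

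**Figure D2:**
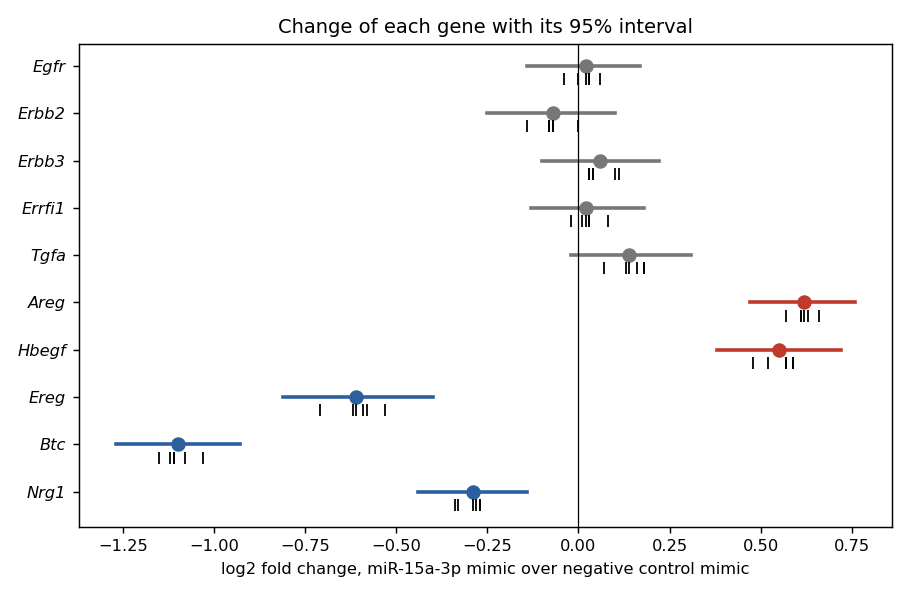
Log2 fold change of mimic over control for each gene (dot) with its 95% interval from the limma fit (line); red marks called rises, blue called falls and grey genes that did not pass. Black ticks under each line give the log2 fold change with 1 of the 6 arrays left out, which for Btc ranged from -1.15 to -1.03 and for Egfr from -0.04 to 0.06.

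The exon-level probe sets gave a second reading within each gene. In the authors' deposited table, which holds a ratio and an unadjusted p-value for each probe set, 11.9% of all 241419 probe sets had p under 0.05, 5.51% higher and 6.44% lower. Its ratios come from the same RNA and are no independent replicate. Its error terms correspond to a comparison of 2 with 3 arrays, so its ratios may not rest on all 6. For Btc all 9 of the 9 probe sets of the authors' deposited table were lower with the mimic, at ratios from 0.322 to 0.755, and 6 had p under 0.05. For Ereg all 6 of 6 were lower in the authors' deposited table, at ratios from 0.486 to 0.675, and 5 had p under 0.05. Hbegf had 8 of 8 higher in the authors' deposited table, at ratios from 1.08 to 1.81, and 5 with p under 0.05. No probe set of these 3 genes had a ratio on the other side of 1.

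Areg and Nrg1 were less even along their probe sets. For Areg the authors' deposited table gave 6 of 7 probe sets as higher, 3 of them with p under 0.05. Its probe sets ran from a ratio of 0.988 (10523183, p = 0.92 in the authors' deposited table) to 2.41 (10523186, p = 0.007). The median of the 7 on the log2 scale was 0.81 in the authors' deposited table, against 0.62 for the transcript cluster over all 6 arrays. These values may rest on unlike sets of arrays. For Nrg1, a gene with many promoters and isoforms, 12 of 15 were lower in the authors' deposited table, 5 of them with p under 0.05. The lowest ratio in the authors' deposited table was 0.363 (10578048, p = 0.075) and the highest 2.06 (10578056, p = 0.055), so that neither extreme passed. The isoform that each probe set reads, not given in the sources used here, was not assigned.

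Of the genes that did not pass, the authors' deposited table gave Egfr 0 of 33 probe sets with p under 0.05 and Tgfa 0 of 7. In the authors' deposited table Erbb2 had 4 of 29 lower and 0 higher with p under 0.05, and 23 of the 29 ratios lay below 1. Erbb3 was read with wide scatter, from a ratio of 0.507 to 1.73 in the authors' deposited table, with 15 probe sets on either side of 1. For Errfi1, 1 of 5 probe sets was lower (10510575, ratio 0.695, p = 0.0058 in the authors' deposited table) and the other 4 were higher without passing.

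**Figure D3:**
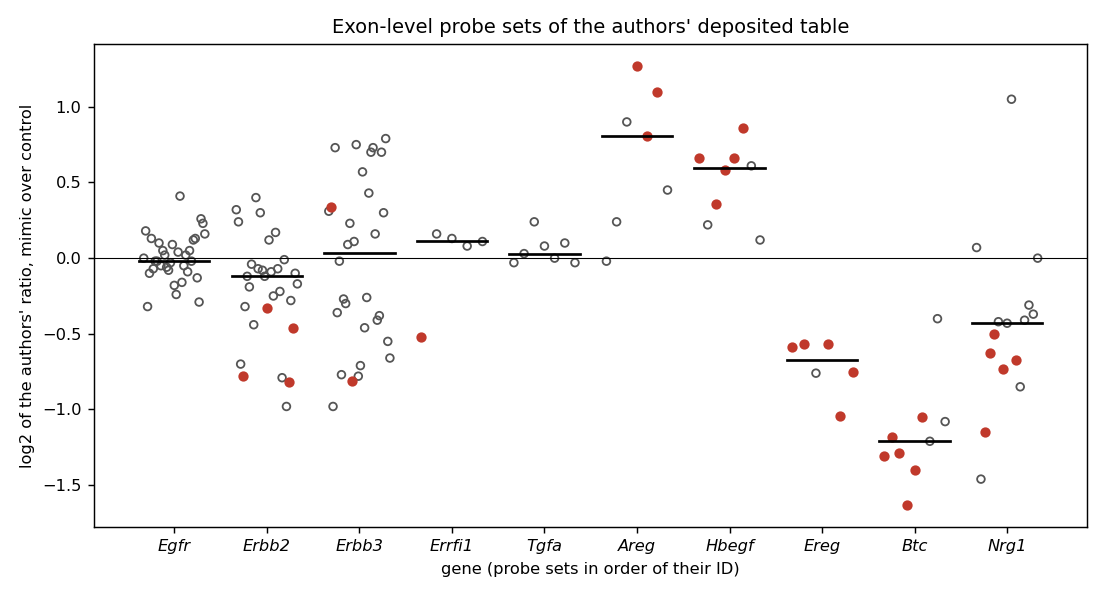
Log2 of the ratio of mimic over control for every exon-level probe set of the 10 genes, from the authors' deposited table; filled red points have an unadjusted p under 0.05, open points do not, and black bars are the medians. All points of Btc and Ereg lie below 0 and all of Hbegf above it, while those of Egfr gather around 0 and those of Erbb3 scatter from -0.98 to 0.79.

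Ereg, Areg and Btc lie next to each other in the mouse genome. In the RefSeq gene order of assembly GRCm38.p6, Epgn, Ereg, Areg and Btc are 4 consecutive protein-coding genes of chromosome 5. Along this order the log2 fold changes were 0.14 (Epgn, which encodes the ligand epigen; limma adjusted p = 0.40), -0.61, 0.62 and -1.10. Neighbours thus moved in opposite directions, and the 95% intervals of Ereg (-0.81 to -0.40), Areg (0.47 to 0.76) and Btc (-1.27 to -0.93) did not touch.

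The 250 bases before the start sites of Areg and Btc are shown because these neighbours moved in opposite directions by the largest amounts on this chromosome segment. They are RefSeq sequences of build GRCm38.p6. The region of Areg is chr5:91139349-91139598 on the plus strand and that of Btc is chr5:91402995-91403244 on the minus strand. Capitals mark matches on either strand to 4 motifs: the cyclic AMP response element (TGACGTCA), the AP-1 site (TGANTCA), the TATA box (TATAAA) and the GC box (GGGCGG).
Areg: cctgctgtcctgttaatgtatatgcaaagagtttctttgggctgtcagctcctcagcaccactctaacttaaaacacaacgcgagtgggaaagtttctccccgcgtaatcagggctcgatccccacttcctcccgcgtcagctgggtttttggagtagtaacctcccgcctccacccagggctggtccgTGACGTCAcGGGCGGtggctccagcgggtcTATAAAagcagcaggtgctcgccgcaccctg
Btc: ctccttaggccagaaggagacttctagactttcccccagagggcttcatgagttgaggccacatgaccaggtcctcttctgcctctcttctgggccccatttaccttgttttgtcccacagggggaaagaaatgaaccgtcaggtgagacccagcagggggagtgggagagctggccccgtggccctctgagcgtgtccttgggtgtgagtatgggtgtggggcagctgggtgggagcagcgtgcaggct

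The Areg sequence held a cyclic AMP response element from base -61, a GC box from base -52 and a TATA box from base -31, counted back from the start, and the matches do not overlap. Among all 32851 promoters of the RefSeq table, 1.55% held the first of these motifs, 32.7% the GC box, 12.4% the TATA box and 6.75% the AP-1 site in the same window. The Btc sequence held none of the 4. A promoter was listed for 6 of the 10 genes, namely Areg, Btc, Egfr, Erbb2, Tgfa and Errfi1, and for none of Erbb3, Ereg, Hbegf and Nrg1. The same 3 motifs stood before 1 of the start sites of Errfi1, with the cyclic AMP response element from base -51. Egfr and Tgfa held a GC box and none of the other motifs, and Erbb2 held none of the 4. These matches are letters in a window, and binding was not measured.

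Further genes of the pathway were read from 6 lists, chosen with earlier results of these data known. The lists share no gene with the 10, and 102 of their genes were measured. Of these 9 rose and 8 fell, and 16.7% were called, beside 11.7% of all genes and 19.2% of genes at or above the median gene, where 90 of the 102 lay. The median log2 fold change over the lists was 0.01, that of all genes 0.01. The share called in the pathway lay between these 2 background shares.

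Among the remaining receptors and ligands, Erbb4, Egf, Epgn, Nrg2 and Nrg3 did not pass and Nrg4 rose, with a log2 fold change of 0.26 (limma adjusted p = 0.025). All 6 of these genes had a mean below that of the median gene. The Nrg4 call was lost whenever any 1 array was left out, at adjusted p from 0.051 to 0.10. Erbb4, the second receptor for betacellulin, HB-EGF and epiregulin, had a 95% interval from -0.09 to 0.19.

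Of 9 proteases and partners that release the ligands, 1 fell and 0 rose (list median -0.04). On this list 8 lay at or above the median gene, where 19.2% were called, against 11.7% of all genes. Adam17 encodes the protease that releases amphiregulin, HB-EGF, epiregulin and TGF-alpha from the cell surface. Its log2 value was 9.91, 10.04 and 9.96 with the control and 9.55, 9.53 and 9.60 with the mimic. All mimic arrays were lower, and the log2 fold change was -0.41 ± 0.06 (SE; adjusted p = 0.0033). Adam10, which encodes the protease that releases betacellulin, had 11.25, 11.30 and 11.34 with the control and 11.48, 11.46 and 11.44 with the mimic. Its groups did not overlap, but its log2 fold change of 0.17 did not pass (adjusted p = 0.12).

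Of 30 adaptor and transducer genes, 2 fell and 0 rose (list median -0.02). The share called was 11.7% of all genes and 19.2% of those at or above the median gene, where 29 of the 30 lay. Ptpn11, which encodes the phosphatase SHP2 that carries receptor signals to Ras, fell with a log2 fold change of -0.35 (limma adjusted p = 0.0061). Map2k1, which encodes the ERK kinase MEK1, fell with -0.24 (0.030). The call of Map2k1 was lost without replicate 2 or 3 of the mimic (0.074 and 0.12) or of the control (0.086 and 0.13), which left 1 fallen gene in each of these fits. The count also went up with the setting. Without mimic replicate 1 it was 5 fallen and 1 risen, after quantile normalization 7 fallen and 1 risen, and after median centring 6 fallen and 0 risen.

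Of 25 negative regulators and genes of receptor endocytosis, 4 rose and 0 fell (list median 0.03). At or above the median gene, where 24 of the 25 lay, 19.2% of genes were called, against 11.7% of all genes. Dusp6 narrowly missed a call as fallen, with a log2 fold change of -0.27 (limma adjusted p = 0.05 after rounding) and groups that did not overlap. Sh3kbp1 encodes CIN85, an adaptor that links the ubiquitin ligase CBL to the uptake of EGFR. It had 8.84, 9.01 and 8.83 with the control and 9.47, 9.31 and 9.37 with the mimic, a log2 fold change of 0.49 (limma adjusted p = 0.0027). Spred1 and Spred2, which encode inhibitors of the step from Ras to RAF, had log2 fold changes of 0.42 (0.0063) and 0.32 (0.012). Lrig1, which encodes a membrane protein that promotes receptor breakdown, had 0.32 (0.027). The call of Spred2, read by 1 probe set, was lost without mimic replicate 3 (0.057) or control replicate 3 (0.068). That of Lrig1 was lost without replicate 1 or 3 of the mimic (0.080 and 0.062) or of the control (0.078 and 0.068).

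Of 25 genes known to be induced through ERK, 3 rose and 1 fell (list median 0.06). As background, 11.7% of all genes were called and 19.2% of those at or above the median gene, where 22 of the 25 lay. Plaur, which encodes the urokinase receptor, had 8.71, 8.91 and 8.78 with the control and 9.46, 9.37 and 9.44 with the mimic, a log2 fold change of 0.62 (limma adjusted p = 0.00063). Ccnd1 (cyclin D1) and Myc had log2 fold changes of 0.32 (0.0093) and 0.30 (0.016), and Lif, which encodes a cytokine, had -0.38 (0.036). The immediate early genes lay on both sides of 0 and did not pass. Fos and Egr1 had log2 fold changes of 0.13 and 0.10 (adjusted p = 0.22 and 0.41). Egr2 and Ier2 had -0.21 and -0.14 (adjusted p = 0.072 and 0.33). Fosb, Fosl1, Jun and Ier3 also lay above 0, and Egr3 and Junb below it. The call of Ccnd1 was lost without control replicate 3 (0.050) and that of Myc without control replicate 2 (0.050) or control replicate 3 (0.056). The call of Lif was lost without replicate 1 or 2 of the mimic (0.055 and 0.078) or replicate 2 or 3 of the control (0.094 and 0.12).

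Of 7 genes that EGF-like factors induce in cumulus cells, 4 fell and 1 rose, and the list median was -0.36. All 7 lay at or above the median gene, where 19.2% were called, against 11.7% of all genes. The list was chosen with earlier results of these data known, so its count and median are description only. Has2, which encodes the synthase of the hyaluronan matrix, had 9.50, 9.87 and 9.74 with the control and 8.20, 8.07 and 8.15 with the mimic. Its log2 fold change was -1.56 (limma adjusted p = 2.4e-05). Ptgs2, the gene of inducible cyclooxygenase, fell by 0.37 on the log2 scale (0.0039), Tnfaip3 by 0.36 (0.012) and Adamts1, which encodes a matrix protease, by 0.39 (0.021). Tnfaip6, whose product links proteins to hyaluronan, had 0.38 (0.031), while Ptx3 and Runx1 did not pass. Adamts1 was not called without replicate 2 or 3 of the mimic (0.068 and 0.069) or of the control (0.060 and 0.079). Tnfaip6 was not called without any 1 of the mimic arrays (0.11, 0.054 and 0.060) or control replicate 1 (0.064), nor Tnfaip3 without control replicate 3 (0.067).

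**Figure D4:**
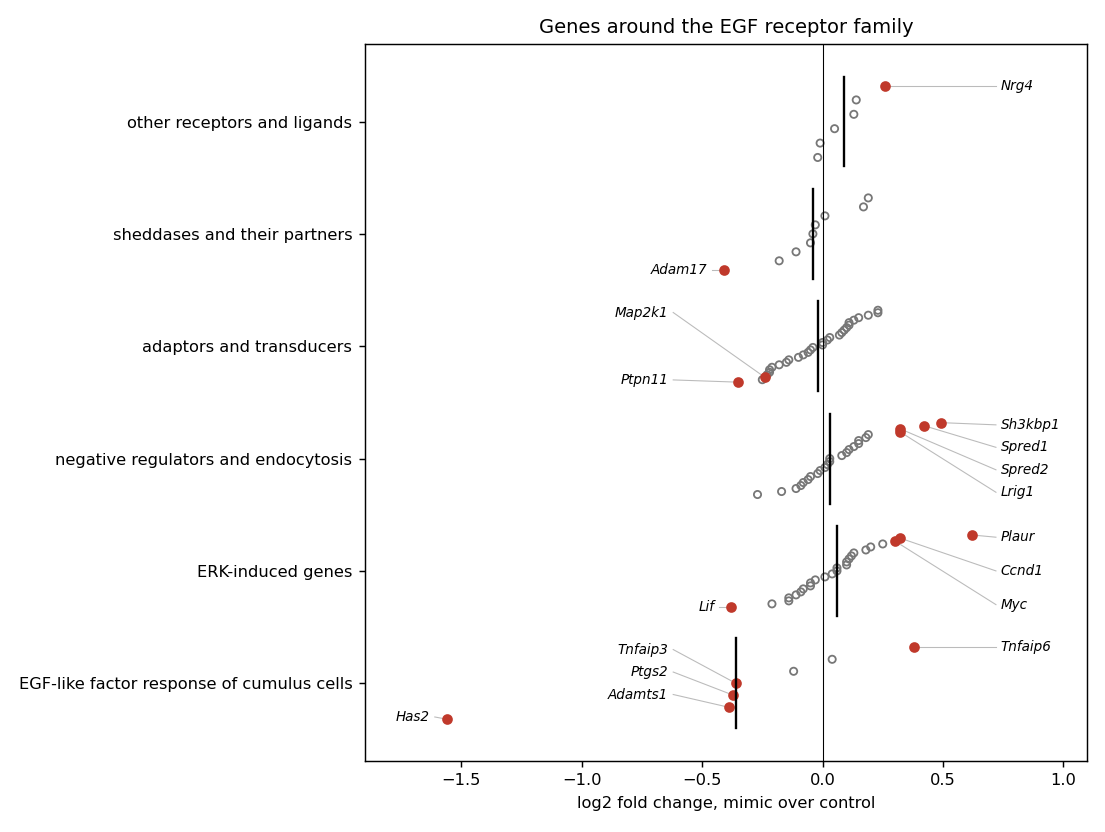
Log2 fold change of mimic over control for each measured gene of the 6 pathway lists, spread within a list by size; filled red points with names passed the limma adjusted p of 0.05, open points did not, and black bars are list medians. The medians of 5 lists lie between -0.04 and 0.09 and that of the cumulus cell list at -0.36. The lists were chosen with earlier results of these data known.

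Beside these changes, markers of several cell types moved, those of surface and mesothelial cells in both directions. Of 9 such markers Krt8, Krt18 and Krt19 rose, Krt18 close to the threshold (limma adjusted p = 0.049), and Upk3b, Lrrn4, Krt7 and Wt1 fell. The mean log2 value over this list ran from 9.58 to 9.70 on the mimic arrays and from 9.79 to 9.80 on the control arrays. Of 10 granulosa markers 2 fell, Inhbb and Fst, and the list mean ran from 6.69 to 6.79 with the mimic and from 6.85 to 6.99 with the control. Of 7 fibroblast and stroma markers Pdgfra rose and Dcn and Lum fell, and the list mean ran from 9.02 to 9.08 with the mimic and from 9.12 to 9.17 with the control. Krt14 rose and Muc1 fell of 6 epithelial markers, and Ddx4 fell of 4 oocyte markers and Tek of 4 endothelial markers. Of 5 theca and 5 leukocyte markers, 0 passed. The fallen Ddx4, Tek, Lum and Muc1 had means below that of the median gene (7.27), where a level near background cannot be set apart. Beside these marker counts, 11.7% of all genes were called, and 19.2% of genes at or above the median gene. The list means of the surface, granulosa, fibroblast, oocyte and theca markers did not overlap between the groups. They were lower with the mimic in all but the theca list (5.22 to 5.32 against 5.20 to 5.21). The oocyte means ran from 5.57 to 5.63 with the mimic and from 5.64 to 5.77 with the control. These last 2 gaps were narrow, in lists with 0 genes at or above the median gene. Of single genes, 29.6% had groups that did not overlap, but no such share was computed for means over lists. The part of these markers in the changes of the ligand genes was not tested. In bulk RNA of this kind, fewer cells that make a transcript and less transcript per cell cannot be told apart.

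Over the 6 arrays, the genes most like Egfr among the other members and the pathway lists (111 candidates) were Adam19 (r = 0.897), Pik3ca (0.895) and Lrig3 (0.868). Those most like Btc, the ligand gene with the smallest adjusted p, were Has2 (r = 0.998), Ptgs2 (0.997) and Adam17 (0.995). These are Pearson coefficients of log2 values, given as a description over 6 points that form 2 groups of 3.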

How the data were processed

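RNA of 6 samples was measured on mouse gene arrays, 3 with each mimic, with groups and replicate numbers from the titles. The authors deposited log2 values of 35556 transcript clusters, between 2.73 and 13.91, whose scale was read from these values. RMA, MAS5, Affymetrix Expression Console and Partek are named, with no role or version, per the submitters' processing notes. The genome build, not given in the sources used here, remains unknown. A second deposited table holds, per the file headers, a linear ratio, an unadjusted p-value and scores (a signed fold, F statistics, sums of squares) for 241419 exon-level probe sets. Those sums of squares correspond to 2 model and 3 error degrees of freedom and a contrast variance of 0.833 times the error variance. A comparison of 2 with 3 arrays gives 0.833, and 3 with 3 gives 0.667. The ratios of that table thus appear to compare 2 with 3 arrays. Across transcript clusters with at least 4 probe sets, the median log2 ratio of the probe sets was set against the log2 change on the arrays. The correlation was r = 0.928 with all 6 arrays and highest, at 0.940, without mimic replicate 1. Another file, a subset of that table, was not used.

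Clusters were named from the probe sets whose IDs lie between a cluster's ID and the next. Over 17009 clusters with at least 4 probe sets the log2 changes of both tables correlated with r = 0.928, and with 0.0958 and 0.0952 for the next and the previous interval. Symbols were updated through RefSeq (GRCm38.p6, for names and gene order). Of the clusters 24127 had 1 symbol, 822 several and 10607 none. The brightest cluster of each gene was kept, giving 21136 genes.

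The fit was limma 3.58.1 (R 4.3.3; lmFit, eBayes), two-sided, at a Benjamini-Hochberg adjusted p of 0.05 over all genes, no filter and no block. Fold changes are mimic over control. The code was tested on simulated data. Members and lists were chosen with earlier results of these data known. Named were all members, the called genes of each list (at most 4 where more than 5 passed in a direction) and the 3 genes most like Egfr and Btc. Other genes that did not pass were named after their values were seen. The closing section gives the alternatives.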

Additional observations from a re-analysis of the deposited data

How the results depend on the processing

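The 15 alternative fits were 2 filters on dim genes (mean log2 of at least 6, or of the median gene), quantile normalization, median centring, the replicate block, the mean of a gene's clusters, all transcript clusters, an intensity trend with a robust prior, array weights, and 1 array left out (6 fits). Under them the number of called genes among the 10 was 4 or 5, with 2 risen in each and 2 or 3 fallen, and the gene that was lost was Nrg1. Besides the fits without 1 array, its call was lost when all transcript clusters were tested (adjusted p = 0.057). The deviations of same-numbered arrays from their group means correlated with r = -0.055, -0.284 and 0.038. Those of arrays with different numbers ran from r = -0.299 to 0.331. With 3 arrays per group these values cannot decide whether the replicate numbers mark pairs. With the replicate block 4 of the 10 genes were called (2 risen, 2 fallen; Nrg1 adjusted p = 0.051), 1734 of all genes and 11 of the pathway genes. Of all genes 2480 were called, 5700 with array weights, whose estimation stopped before it converged, and 1286 to 2060 with 1 array left out (1286 without control replicate 3, 1548 without mimic replicate 3). Of the pathway genes 17 were called, 28 with a filter at the median gene, 11 when all transcript clusters were tested, 35 with array weights, and 9 to 17 with 1 array left out (9 without control replicate 3, 11 without mimic replicate 3). Among adaptors and transducers 2 fell, 5 to 10 with either filter, the intensity trend or array weights, where 2 also rose. With these 4 settings 1 negative regulator fell, and up to 2 proteases and partners rose. With array weights 3 proteases and partners fell and 1 rose, beside 1 fallen and 0 risen in the main fit. A fall of 1 negative regulator was also called after quantile normalization, median centring, with the mean of a gene's clusters and without mimic replicate 2. Erbb3 has no value under the filter at the median gene. No gene among the 10 that was called changed direction in these fits. The median over the exon-level probe sets was 0.81 for Areg and -0.43 for Nrg1 on the log2 scale, in the authors' deposited table. Apart from fewer genes or arrays entering a fit, the cause of these shifts was not tested. The number of arrays and the lack of detection calls limit what can be said of dim genes such as Erbb3 and Nrg4.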
